A study of Mus musculus with 8 samples.

Results

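The melanocyte pigment genes are 10 genes that pigment cells use to make melanin: Tyr, Tyrp1, Dct, Pmel, Mlana, Mitf, Slc45a2, Oca2, Mc1r and Gpr143. They were chosen by name, as every probe set whose platform annotation gives a single gene symbol that is one of these. All 10 were found, with 17 probe sets among the 45037 tested, and they are 10 of 18193 genes. A probe set is a group of short oligonucleotides on the array that together read 1 transcript. A gene with several was read mainly at its brightest one, by the mean of all 8 arrays.

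Skin was taken from the back of mouse embryos at day 18.5 of gestation, delivered by cesarean, and its RNA was read on 8 single-colour Affymetrix arrays. The 4 GR-null arrays came from GR-/- embryos, which lack the glucocorticoid receptor (GR, encoded by Nr3c1), and the 4 wild-type arrays from GR+/+ littermates, all of strain B6D2/F1 and untreated as far as the labels say. B6D2/F1 combines C57BL/6 with DBA/2, a strain known for its brown allele of Tyrp1 and its dilute allele of Myo5a, and the coat colour alleles of each embryo are not known here. Each array keeps its label number, and the 2 genotypes share none. The labels do not give the litter of each array, so litter was not in the fit. Nothing says that each array came from a separate embryo, so p-values measure the spread between these samples, which may be technical. Values by array are log2 levels, given in the order wild-type 4, 6, 28 and 29, then GR-null 5, 17, 25 and 26.

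Melanocytes of the trunk arise from the neural crest, enter the epidermis and settle in the growing hair follicles, where they pass melanin to the hair. Melanin is built inside melanosomes, organelles with their own enzymes, scaffold and transporters. The transcription factor Mitf switches on most of these genes through the E-box sequence CATGTG, and the receptor Mc1r sets the kind of melanin made. Skin of a late mouse embryo holds few melanocytes among many keratinocytes and fibroblasts, and in RNA from whole skin a change in their number and a change in RNA per cell cannot be told apart.

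The stretches of 250 bases before the RefSeq transcription start (GRCm38.p6) are printed for the 5 genes with the largest differences among those whose sequence was found. Capitals mark CATGTG, or CACATG where it lies on the other strand.
Tyr (chr7:87493513-87493762, minus strand): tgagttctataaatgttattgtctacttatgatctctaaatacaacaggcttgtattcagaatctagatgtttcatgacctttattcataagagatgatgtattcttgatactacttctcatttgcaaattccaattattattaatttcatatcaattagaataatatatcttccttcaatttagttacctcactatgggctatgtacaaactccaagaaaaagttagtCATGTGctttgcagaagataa
Tyrp1 (chr4:80833963-80834212, plus strand): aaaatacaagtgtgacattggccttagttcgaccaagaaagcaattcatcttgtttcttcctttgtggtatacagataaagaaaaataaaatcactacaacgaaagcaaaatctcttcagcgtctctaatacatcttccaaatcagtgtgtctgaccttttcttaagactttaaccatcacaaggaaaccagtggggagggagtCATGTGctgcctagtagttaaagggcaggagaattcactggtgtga
Dct (chr14:118052247-118052496, minus strand): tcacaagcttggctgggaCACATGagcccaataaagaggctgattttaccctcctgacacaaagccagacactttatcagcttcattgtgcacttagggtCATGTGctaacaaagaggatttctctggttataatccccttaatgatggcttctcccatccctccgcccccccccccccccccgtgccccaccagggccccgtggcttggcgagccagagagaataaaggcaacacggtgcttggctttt
Oca2 (chr7:56239509-56239758, plus strand): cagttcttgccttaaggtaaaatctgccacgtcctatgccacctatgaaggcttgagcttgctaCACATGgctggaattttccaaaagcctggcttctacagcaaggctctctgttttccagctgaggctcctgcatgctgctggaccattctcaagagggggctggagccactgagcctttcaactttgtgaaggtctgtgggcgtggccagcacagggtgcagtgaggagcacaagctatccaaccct
Mc1r (chr8:123406832-123407081, plus strand): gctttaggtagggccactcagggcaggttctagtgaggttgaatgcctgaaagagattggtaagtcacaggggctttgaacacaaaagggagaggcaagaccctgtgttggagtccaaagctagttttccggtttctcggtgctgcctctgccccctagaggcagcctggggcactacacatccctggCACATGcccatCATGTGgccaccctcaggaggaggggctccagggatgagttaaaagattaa

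Each of these 5 stretches held the E-box at least once. In Tyr it began 21 bases before the start, in Tyrp1 46 and in Dct 150 bases before it on the gene's strand, and Dct had a further match on the other strand at 232. Oca2 had a match on the other strand at 186, and Mc1r had matches at 51 and, on the other strand, at 62. Over all 32851 stretches of this length in the table, 12.3% held CATGTG on either strand. The 3 start sites of Mitf held none. AGAACA, the hexamer repeated in the glucocorticoid response element, searched on either strand, was in none of the 8 stretches found for 6 of the genes, against 16.1% of all stretches. Pmel, Mlana, Slc45a2 and Gpr143 were not matched. A match of letters is a description and shows no binding. The E-box was chosen for its known role in these genes, so its presence beside the share of all stretches is no test.

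In GR-null skin the transcripts of the pigment enzyme Tyr and of the melanosome scaffold protein Pmel were higher, about 2.05-fold and 1.80-fold. Dct, Tyrp1 and Oca2 were also higher in all 4 GR-null arrays than in all 4 wild-type arrays but did not pass the threshold. Mitf, Mlana, Slc45a2 and Gpr143 overlapped between the genotypes, and Mc1r had a lower mean in GR-null skin without passing the threshold. All differences are GR-null minus wild-type on the log2 scale, tested with limma and adjusted by Benjamini-Hochberg over all 18193 genes with a threshold of 0.05.

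**Figure D1:**
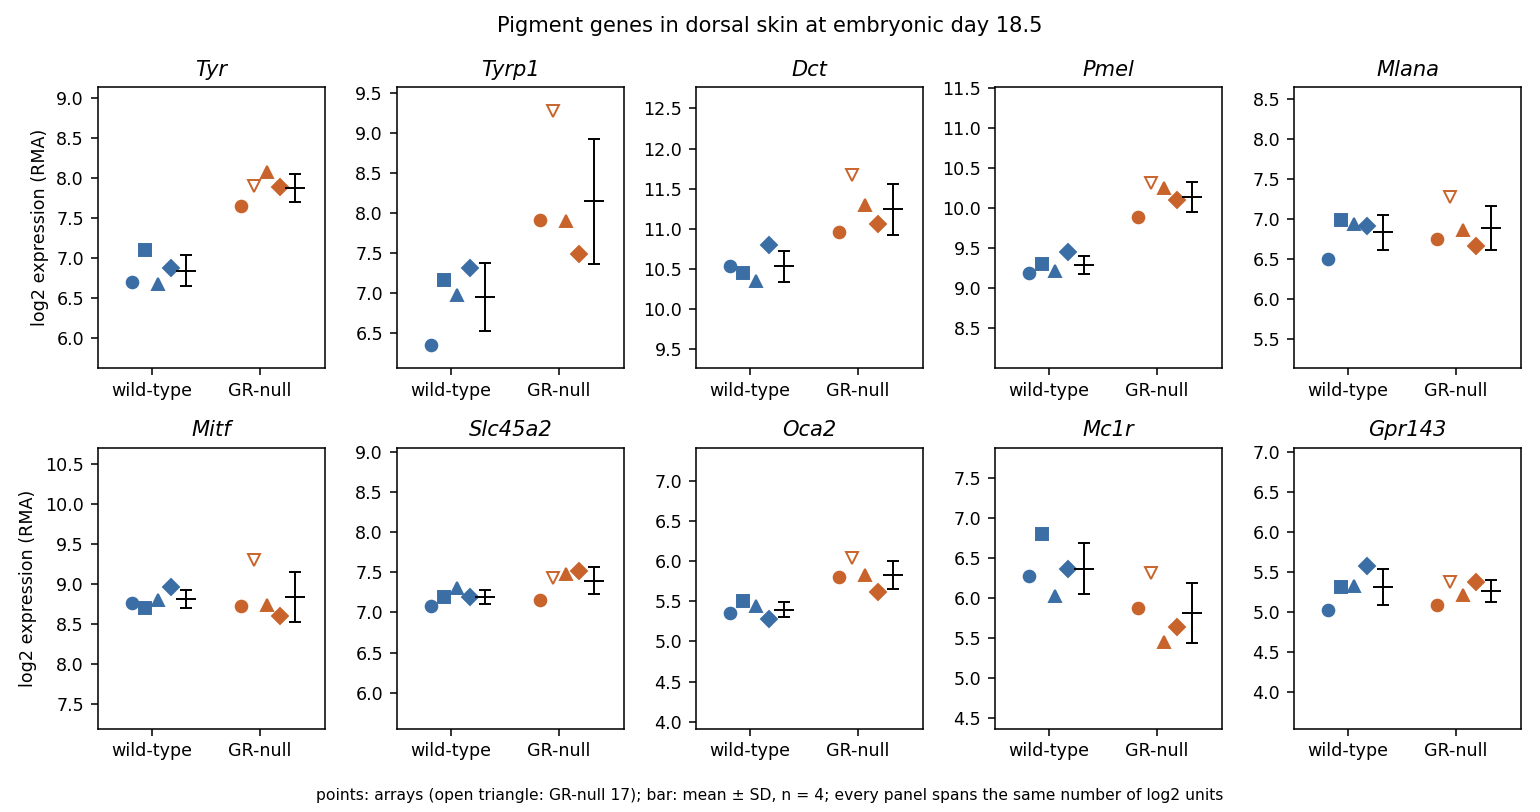
Log2 expression of the 10 pigment genes at the main probe set of each, by genotype, with 1 point per array and the mean ± SD of 4 arrays beside it. In Tyr, Tyrp1, Dct, Pmel and Oca2 every GR-null point lies above every wild-type point, and the open triangle of GR-null 17 is the highest GR-null value in 8 of the 10 genes.

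Tyr encodes tyrosinase, the enzyme that starts melanin synthesis and sets its rate. It read 6.71, 7.09, 6.68 and 6.88 on the wild-type arrays and 7.65, 7.90, 8.07 and 7.89 on the GR-null arrays. The lowest GR-null array stood clear of the highest wild-type array, and the arrays within a genotype lay close together. Tyr rose by 1.04 ± 0.12 (SE, n = 4 per group, limma adjusted p = 0.00688), from 6.84 ± 0.19 (SD) to 7.88 ± 0.18.

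Tyr had 2 other, dimmer probe sets, which gave different results. One read 4.89, 4.76, 4.72 and 4.49 on the wild-type arrays and 5.23, 5.01, 5.44 and 5.32 on the GR-null arrays, again without overlap, and rose by 0.53 ± 0.12 (limma adjusted p = 0.0431 over all probe sets). The other differed by 0.06 (95% interval -0.33 to 0.45) with an adjusted p of 0.887. Both were dimmer than most probe sets on the array, at the 28.6 and 33.5 percentiles of mean level, while the main one stood at 61.5. With the mean of the 3 in place of the brightest, Tyr was higher by 0.54 (limma adjusted p = 0.0125).

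Dct, dopachrome tautomerase, acts after tyrosinase and is an early marker of melanoblasts. It read 10.54, 10.45, 10.35 and 10.80 on the wild-type arrays and 10.96, 11.67, 11.29 and 11.06 on the GR-null arrays. The groups did not overlap, but the gap between wild-type 29 and GR-null 5 was small. Its difference was 0.71 ± 0.16 (SE), or 1.64-fold, with an adjusted p of 0.0534 by limma over all genes. Read among all probe sets it passed the threshold (adjusted p = 0.0480), and without GR-null 17 it passed it over all genes at a smaller difference of 0.57 (adjusted p = 0.0332).

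Tyrp1, tyrosinase-related protein, catalyses a late step of black melanin synthesis, and had the largest and most variable difference of the 10 genes. It read 6.35, 7.17, 6.98 and 7.32 on the wild-type arrays and 7.91, 9.28, 7.90 and 7.49 on the GR-null arrays. GR-null 17 stood far above the next array, GR-null 26 was barely above wild-type 29, and wild-type 4 was the lowest. The difference was 1.19 ± 0.37 (95% interval 0.37 to 2.02), or 2.29-fold, with an adjusted p of 0.105 by limma. Without GR-null 17 it was 0.82 (adjusted p = 0.0605).

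The 2 other probe sets of Tyrp1 were also higher in GR-null skin on average. One read 5.44, 6.41, 6.13 and 6.39 on the wild-type arrays and 7.33, 8.31, 7.53 and 7.31 on the GR-null arrays, a gap of nearly 1 log2 unit between the groups, and rose by 1.53 ± 0.27 (limma adjusted p = 0.0265 over all probe sets). The other, whose name ends in _x_at and which can take up related transcripts, overlapped between the groups and differed by 0.74 ± 0.31 (adjusted p = 0.206).

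**Figure D2:**
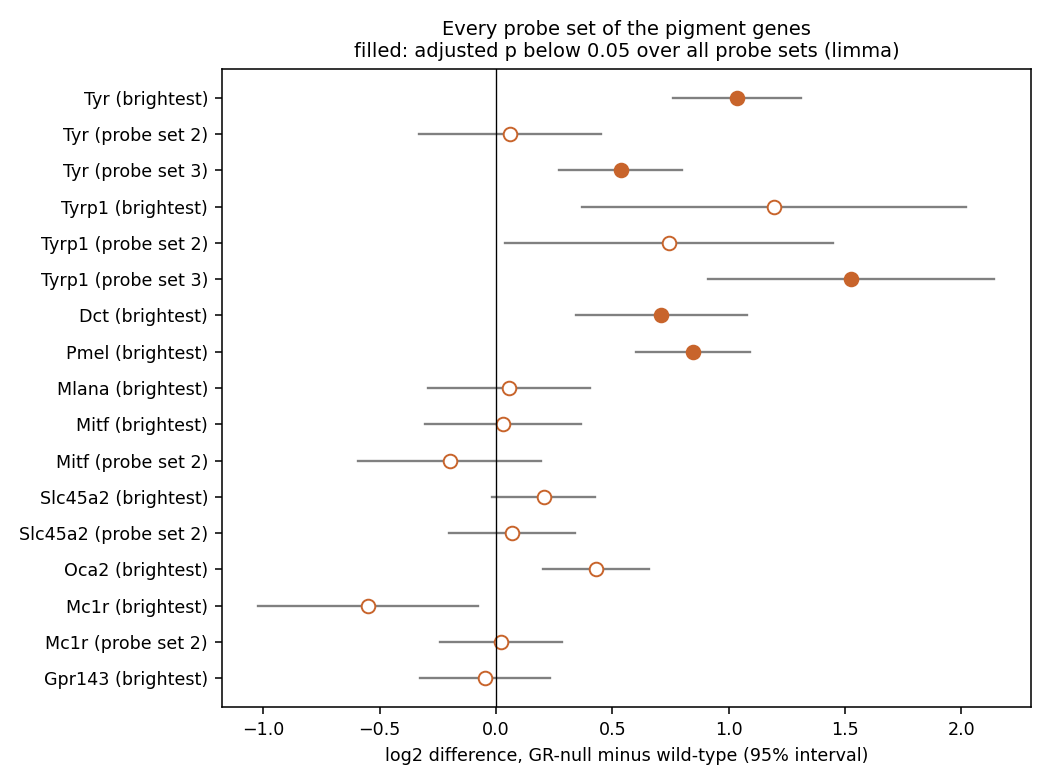
Log2 difference between GR-null and wild-type skin for all 17 probe sets of the pigment genes, ordered within a gene from bright to dim, with lines for the 95% interval. The 5 filled points, which passed the threshold over all probe sets, belong to Tyr, Tyrp1, Dct and Pmel and lie between 0.53 and 1.53.

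Pmel encodes the protein that forms the amyloid fibrils on which melanin is laid down. Its single probe set read 9.19, 9.30, 9.22 and 9.45 on the wild-type arrays and 9.89, 10.32, 10.25 and 10.10 on the GR-null arrays. All GR-null arrays lay above the wild-type range, whose spread was 0.26. Pmel rose by 0.85 ± 0.11 (SE, limma adjusted p = 0.0103).

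Mlana, the melanosomal protein that binds Pmel and takes part in its maturation, read 6.51, 6.99, 6.94 and 6.91 on the wild-type arrays and 6.75, 7.28, 6.87 and 6.67 on the GR-null arrays. The groups lay over each other, with wild-type 4 lowest and GR-null 17 highest. The difference was 0.06 (95% interval -0.29 to 0.40, adjusted p = 0.887), an interval that lies below the difference measured for Pmel.

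Of the melanosome transporters, Oca2, a chloride channel that keeps the melanosome's pH permissive for tyrosinase, read 5.36, 5.51, 5.44 and 5.28 on the wild-type arrays and 5.81, 6.05, 5.83 and 5.62 on the GR-null arrays. The groups did not overlap and the signal was dim, below that of most probe sets. The difference was 0.43 ± 0.10 (adjusted p = 0.0583), and without GR-null 17 it was 0.35 (adjusted p = 0.0483). Slc45a2, a further melanosomal transporter, read 7.09, 7.19, 7.31 and 7.19, then 7.16, 7.43, 7.48 and 7.52 in the same order. GR-null 5 fell within the wild-type range and the other GR-null arrays lay above it. Its difference was 0.20 (95% interval -0.02 to 0.43, adjusted p = 0.265), and 0.07 (-0.20 to 0.34) at its second probe set.

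Neither the regulator Mitf nor the receptors Mc1r and Gpr143 passed the threshold. Mitf, which drives transcription of the pigment genes, read 8.76, 8.70, 8.80 and 8.96 on the wild-type arrays and 8.72, 9.30, 8.73 and 8.59 on the GR-null arrays. These are levels of whole skin, and which cells they came from was not tested. GR-null 17 stood above the wild-type range, while the other GR-null arrays lay within or below it. The difference was 0.03 (95% interval -0.31 to 0.36, limma adjusted p = 0.943), -0.12 without GR-null 17, and -0.20 (-0.59 to 0.19) at the dim second probe set.

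Mc1r, the melanocortin receptor that favours black over yellow melanin, read 6.28, 6.79, 6.02 and 6.36 on the wild-type arrays and 5.87, 6.31, 5.44 and 5.63 on the GR-null arrays. GR-null 17 lay inside the wild-type range and the other 3 lay below it. The difference was -0.55 ± 0.21 (adjusted p = 0.171), and without GR-null 17 it was -0.72 and past the threshold (adjusted p = 0.0461). Wild-type 6 and GR-null 17, the highest arrays of each group, were also the ones with a high level of Xist, the RNA of the inactive X chromosome. With the Y-linked level as a covariate Mc1r was at -0.58 (adjusted p = 0.0448), and with that of muscle markers at -0.16 (adjusted p = 0.878). The muscle level follows genotype except in GR-null 17, so the 2 can hardly be told apart. Its second probe set, brighter than 28.8% of all, differed by 0.02 (95% interval -0.24 to 0.28).

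Gpr143, an X-linked receptor in the melanosome membrane, read 5.02, 5.31, 5.32 and 5.57 on the wild-type arrays and 5.08, 5.38, 5.21 and 5.37 on the GR-null arrays. All GR-null values lay within the wild-type range. The difference was -0.05 (95% interval -0.33 to 0.23, adjusted p = 0.883).

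In all, 2 of the 10 genes rose, where 1.40% of all genes were higher past the threshold, and 0 fell, where 1.56% of all genes were lower. With p below 0.05 before adjustment, 5 were higher and 1 lower by limma, against 10.5% and 11.1% of all genes. In 5 of the 10 the GR-null arrays lay above all wild-type arrays, as in 6.69% of all genes, and in 0 they lay below them, as in 6.30%. The median difference of the 10 was 0.32, and that of all genes -0.0045. Among the 17 probe sets 5 rose, where 2.22% of all probe sets did, and 0 fell, where 1.63% did. The genes were named with earlier results of these data known, so these counts are a description.

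Differences between members were compared on the same arrays by taking each gene's log2 value minus that of Mitf. As Mitf was read in whole skin, such a value is not a level per melanocyte. The comparison with Mitf was chosen after the values were seen and covers 9 genes, tested with a two-sided exact permutation test whose smallest possible p is 0.0286. Relative to Mitf, Tyr differed by 1.01, Tyrp1 by 1.16, Dct by 0.68, Pmel by 0.82 and Mc1r by -0.58 between the genotypes. These 5 did not overlap, and the share of all genes without overlap relative to Mitf is not given here. The exact p was 0.0286 for each, the value that any gene without overlap gets. Adjusted over the 9 it was 0.0514, which the design cannot lower further for 5 such genes. Mitf itself differed by 0.03, so these values lie near the differences of the genes alone. Dct minus Mitf was 1.73 ± 0.13 (SD, 4 arrays) in the wild type and 2.41 ± 0.14 in the mutant, with GR-null 17 high in both genes. Oca2 relative to Mitf differed by 0.40 (exact p = 0.0571, adjusted 0.0857). Mlana, Slc45a2 and Gpr143 differed from Mitf by 0.03, 0.18 and -0.08 between the genotypes, with exact p of 0.8286, 0.371 and 0.657.

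GR-null 17 stood apart from the other arrays of its genotype. Alone among them it had high Xist and a low mean of Y-linked transcripts, 3.83 log2 against 8.29 to 8.73. Fits without GR-null 17 therefore also leave out the only GR-null array of that kind. GR-null 17 held the highest GR-null value of 8 of the 10 genes, and the share of all genes where it did is not given here. The mean of 21 hair follicle markers, of matrix, shaft and inner root sheath, was 8.55 log2 in GR-null 17. It was 6.85, 7.16 and 6.72 in GR-null 5, 25 and 26, and 6.80 to 6.84 in wild-type arrays. In GR-null 17 the inner root sheath keratins Krt25 (11.89) and Krt71 (10.02) and the shaft keratin Krt35 (9.40) were far above wild type. The shaft keratins Krt31 (6.22) and Krt86 (4.46) and the matrix gene Lef1 (9.39) were not. That list had 19 of its 21 genes with a positive difference, against 8869 of all 18193 genes, and 0 past the threshold by limma. Before adjustment the list had 4 higher and 0 lower with p below 0.05, against 10.5% and 11.1% of all genes. The smallest p in it were those of the receptor Edar, at 0.25 (adjusted p = 0.0684), and the inner root sheath keratin Krt72, at 0.24 (adjusted p = 0.126). Msx2, a homeobox gene of the follicle matrix, read 7.01 to 7.20 in wild-type arrays, 8.96 in GR-null 17 and 7.48 to 7.57 in the other GR-null arrays.

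The higher levels of Tyr and Pmel were present without GR-null 17, at 1.03 (adjusted p = 0.00680) and 0.79 (adjusted p = 0.00710). With the hair follicle mean as a covariate they were 1.01 (adjusted p = 0.00712) and 0.76 (adjusted p = 0.00741), while Tyrp1 came to 0.74 (adjusted p = 0.0782) against 1.19. That mean stood far above the other arrays in GR-null 17 alone. This fit is therefore close to leaving GR-null 17 out and is no separate check. The mean of 30 skeletal muscle markers was 10.92 to 11.03 in wild-type arrays, 10.96 in GR-null 17 and at most 10.27 in the other 3 GR-null arrays. Of the 30 genes 5 fell (Tnnt1, Casq2, Myh3, Mybpc1 and Actn2) and 0 rose, against 1.56% and 1.40% of all genes. With the muscle mean as a covariate Tyr was 1.13 (adjusted p = 0.0498), Pmel 1.08 (adjusted p = 0.0196), Dct 1.18 (adjusted p = 0.0196) and Tyrp1 2.24 (adjusted p = 0.0327). Mitf and Mlana came to 0.46 and 0.42 in that fit, without passing the threshold. The muscle mean follows genotype except in GR-null 17, so its slope rests largely on that array. Muscle level and genotype can hardly be told apart here, and the larger differences in that fit lean on GR-null 17.

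**Figure D3:**
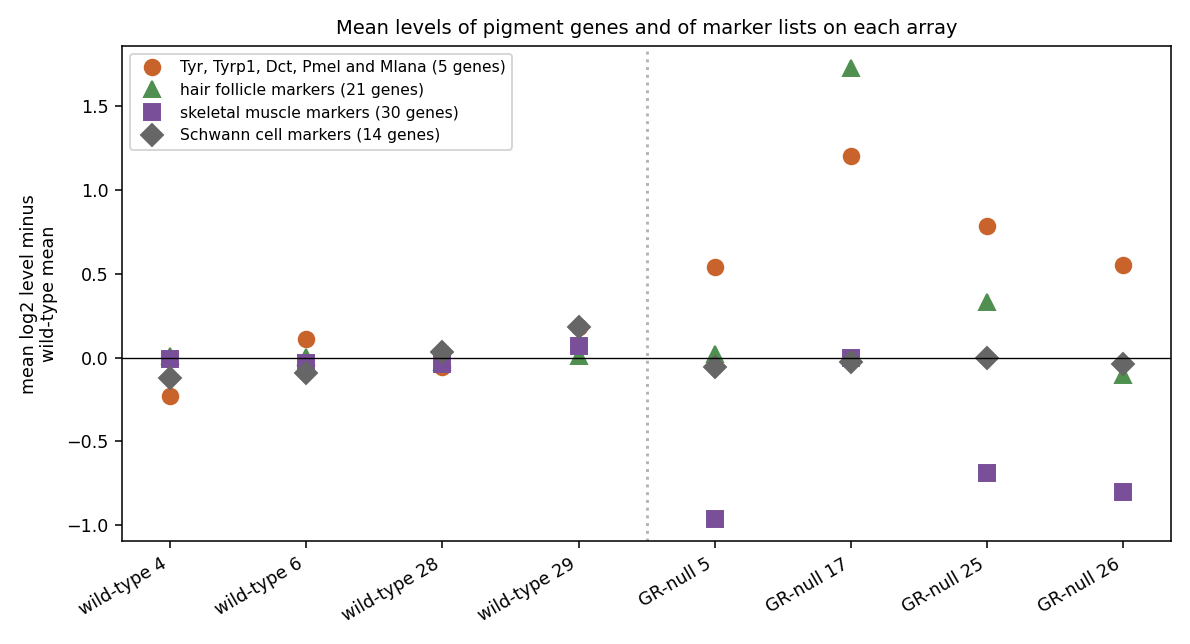
Mean log2 level on each array, minus the wild-type mean, of the 5 genes Tyr, Tyrp1, Dct, Pmel and Mlana and of 3 marker lists. The pigment genes lie above the wild-type arrays in all 4 GR-null arrays, hair follicle markers are high in GR-null 17, and muscle markers are low in GR-null 5, 25 and 26.

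Markers of Schwann cells, the other neural crest derivative of the skin, averaged 7.97 ± 0.14 (SD over 4 arrays) in the wild type and 7.94 ± 0.02 in the mutant. Of the 14 measured genes 0 passed the threshold, while limma gave 3 higher and 4 lower with p below 0.05 before adjustment, where 10.5% and 11.1% of all genes were. The higher were the myelin gene Mbp at 0.42 (adjusted p = 0.196), the myelin regulator Egr2 at 0.63 (adjusted p = 0.1) and the neuregulin receptor Erbb3 at 0.48 (adjusted p = 0.192). The lower were the myelin gene Pmp22 at -0.35 (adjusted p = 0.0690), Ncam1 at -0.37 (adjusted p = 0.141), S100b at -0.27 (adjusted p = 0.142) and Sox10 at -0.25 (adjusted p = 0.158). Of 11 mast cell markers, which share Kit with melanocytes, 3 were lower (Mrgprb1, Hdc and Tpsab1) and 0 higher, against 1.56% and 1.40% of all genes. Limma gave 1 higher and 4 lower with p below 0.05 before adjustment, against 10.5% and 11.1% of all genes. Their means were 9.39 ± 0.14 and 8.99 ± 0.11, but the list did not fall as a whole. Its median difference was -0.0018 with 5 of 11 above 0, and Mrgprb1 differed by -3.47. The mast cell proteases Cpa3 and Mcpt4 differed by -0.0018 and 1.33, without passing the threshold. Keratinocyte markers averaged 12.27 ± 0.17 and 12.25 ± 0.17, but single genes moved in both directions. Trp63, the basal layer's transcription factor, rose by 0.60 (limma adjusted p = 0.0372) and Lor, loricrin of the cornified envelope, fell by 0.48 (adjusted p = 0.0379). These were 1 higher and 1 lower of the 12 genes past the threshold, against 1.40% and 1.56% of all genes. Before adjustment limma gave 3 higher and 2 lower with p below 0.05, against 10.5% and 11.1% of all genes. Dermal fibroblast markers averaged 13.30 ± 0.10 and 13.31 ± 0.09, with 0 of 8 past the threshold. In that list 2 were higher and 1 lower before adjustment by limma, against 10.5% and 11.1% of all genes. The part of these cell types in the pigment gene differences was not tested. Nr3c1 itself fell at 3 of its 6 probe sets, with differences of -2.70 to -0.84 (limma adjusted p up to 0.0133 over all probe sets), and the other 3 did not pass. The position of these probe sets against the mutation is not known here. Array medians lay between 6.46 and 6.52.

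The wider pigment machinery was read in 6 lists holding 88 further genes, 80 of them measured. Of the 80, 1 rose, 0 fell and 79 did not pass the threshold, while limma gave 8 higher and 3 lower with p below 0.05 before adjustment, against 10.5% and 11.1% of all genes. Their median difference was 0.02, with 42 of 80 above 0, against 8869 of all 18193 genes. In 5 the GR-null arrays lay above all wild-type arrays and in 1 below, against 6.69% and 6.30% of all genes.

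The transcription factors that specify melanocytes had 0 of 14 past the threshold and a median of -0.04. Limma gave 1 higher and 1 lower with p below 0.05 before adjustment, against 10.5% and 11.1% of all genes. Tfap2b, an AP-2 factor of the neural crest, averaged 9.17 in the wild type and 9.60 in the mutant, without overlap, and differed by 0.42 ± 0.11 (adjusted p = 0.0641). Sox10, which activates Mitf and marks both melanocytes and Schwann cells, differed by -0.25 (95% interval -0.45 to -0.04, adjusted p = 0.158). Its dimmer probe sets differed by -0.15 (-0.38 to 0.08) and 0.06 (-0.17 to 0.28). Pax3, which acts on Mitf together with Sox10, differed by -0.10 (-0.59 to 0.38).

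Of the ligands, receptors and switches, 0 of 15 passed the threshold and the median was 0.16. A positive difference was seen in 13, against 8869 of all 18193 genes. Limma gave 2 higher and 0 lower with p below 0.05 before adjustment, against 10.5% and 11.1% of all genes. Edn3, the endothelin that keeps melanoblasts dividing, averaged 6.71 in the wild type and 6.99 in the mutant, without overlap, and differed by 0.28 ± 0.10 (adjusted p = 0.150). Attractin (Atrn), needed for agouti signalling at Mc1r, differed by 0.24 ± 0.09 (adjusted p = 0.170). Pomc, the precursor of the hormone that activates Mc1r, differed by 0.08 (95% interval -0.10 to 0.27). Kit ligand and its receptor, named after their values were seen, differed by -0.20 (-0.42 to 0.02) for Kitl and 0.02 (-0.23 to 0.26) for Kit. The 3 dimmer probe sets of Kitl went the other way, with differences of 0.32, 1.18 and 0.91 and adjusted p of 0.236, 0.118 and 0.0607 over all probe sets. The dimmer probe set of Kit was at 0.81 ± 0.31 (SE, limma adjusted p = 0.161 over all probe sets).

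**Figure D4:**
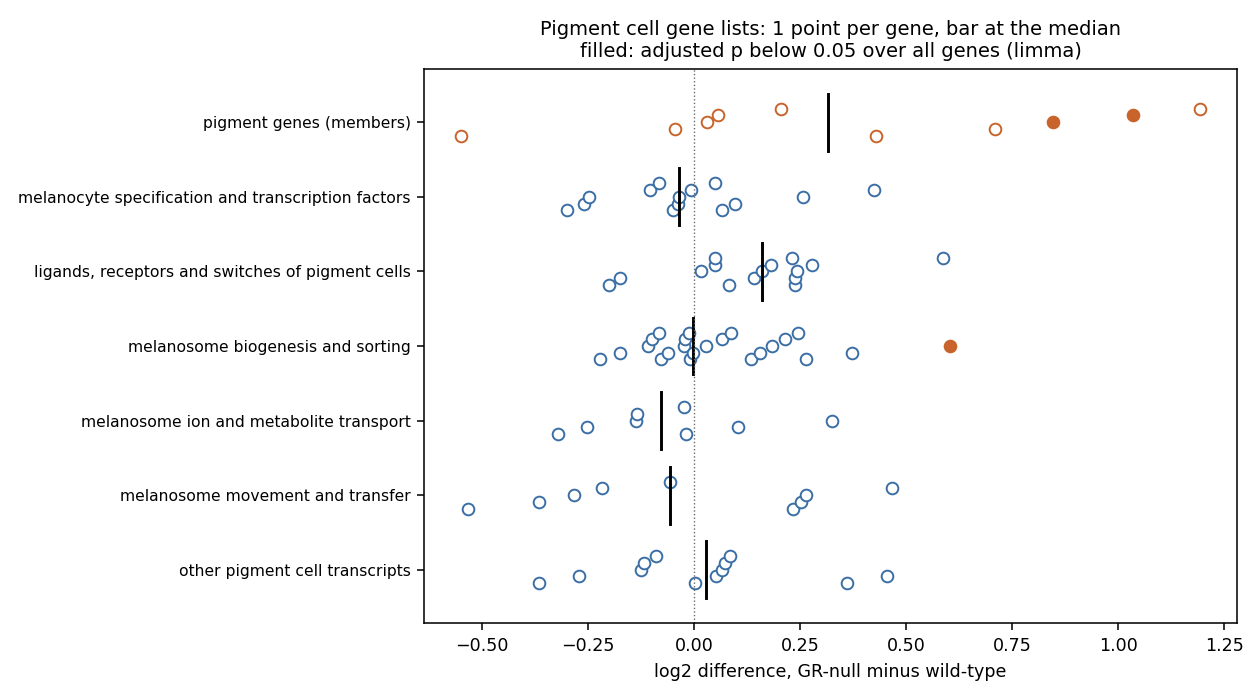
Log2 difference between GR-null and wild-type skin for each measured gene of the pigment genes and of 6 pigment cell lists, with a bar at each list's median. The pigment genes reach from -0.55 to 1.19 with a median of 0.32, and the medians of the other lists lie between -0.08 and 0.16.

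Melanosome biogenesis and sorting had 1 of 23 genes past the threshold and a median of -0.0020. Limma gave 3 higher and 0 lower with p below 0.05 before adjustment, against 10.5% and 11.1% of all genes. Snapin, a subunit of the BLOC-1 sorting complex that is expressed in most cells, read 8.92, 9.06, 8.75 and 8.77 on the wild-type arrays and 9.49, 9.19, 9.60 and 9.62 on the GR-null arrays. It rose by 0.60 ± 0.12 (limma adjusted p = 0.0344), with GR-null 17 lowest of its genotype. Its call ended without wild-type 4, 28 or 29 or GR-null 5, 25 or 26 (adjusted p from 0.0642 to 0.114), where the difference was 0.55 to 0.62. It also ended with the muscle covariate, which follows genotype except in GR-null 17, at 0.36 (adjusted p = 0.395). With the mean of its probe sets it ended too, at 0.21 (adjusted p = 0.216). Its second probe set differed by -0.19 (95% interval -0.66 to 0.27). The Hermansky-Pudlak genes Hps1, Hps3, Hps4, Hps5 and Hps6, which assemble sorting complexes, had differences between -0.11 and 0.03.

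Ion and metabolite transporters had 0 of 8 past the threshold and a median of -0.08. With p below 0.05 before adjustment by limma 1 was higher, against 10.5% of all genes. It was the cystine transporter Ctns, at 0.33 ± 0.12 (adjusted p = 0.161). The copper pump Atp7a, which loads tyrosinase with copper, differed by -0.25 (95% interval -0.52 to 0.01, adjusted p = 0.255). Genes of melanosome movement had 0 of 9 past the threshold and a median of -0.06. In that list 1 was lower with p below 0.05 before adjustment by limma, against 11.1% of all genes. That gene was Mlph, melanophilin, which links melanosomes to myosin Va, at -0.37 ± 0.12 (adjusted p = 0.117) and -0.32 at its second probe set. Rab11b, a recycling GTPase with the next smallest p, differed by 0.25 (adjusted p = 0.241). Of the other pigment cell transcripts 0 of 12 passed the threshold, and the median was 0.03. Among them 1 was higher and 2 lower with p below 0.05 before adjustment by limma, against 10.5% and 11.1% of all genes. Mlph stands in that list too, and S100b, a calcium-binding protein shared with Schwann cells, differed by -0.27 (adjusted p = 0.142).

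The genes whose values over the 8 arrays most resembled the mean profile of Tyr, Tyrp1, Dct, Pmel and Mlana were ranked by Pearson correlation among 2794 genes with an SD of at least 0.3. The correlation takes in the difference between the genotypes and is given as a description. The first 5 that are not pigment genes were Tnmd (r = 0.994), Osr2 (0.979), Clec4n (0.967), Slc39a10 (0.965) and H2-Eb1 (0.964). Tnmd, tenomodulin of tendons, read 7.08, 7.57, 7.39 and 7.56 on the wild-type arrays and 8.03, 9.12, 8.53 and 8.25 on the GR-null arrays, highest in GR-null 17 as Tyrp1 and Dct were. Tyrp1, Dct, Pmel and Tyr themselves, which enter the profile, came at 0.958, 0.957, 0.955 and 0.903, and Mc1r at -0.36. Mlana, which also enters it, and Mitf, Oca2, Slc45a2 and Gpr143 had a smaller SD and were not ranked. That SD takes in the genotype difference. Within the wild type and the mutant it was 0.19 and 0.18 for Tyr and 0.12 and 0.19 for Pmel.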

How the data were processed

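The authors deposited log2 expression per probe set for 8 arrays, computed with RMA according to the submitters' processing notes. This method corrects background, forces arrays to 1 distribution and combines the probes of a set, and it can understate differences of dim probe sets. Its version is not known here.

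From 45101 probe sets 64 controls were left out. Of the 45037 tested, 34945 had 1 symbol, 932 several and 9160 none listed. Symbols were updated through RefSeq (GRCm38.p6), giving 18193 genes, 18032 of them found there. Genotype was the single term in limma 3.58.1 (R 4.3.3: lmFit, eBayes, two-sided), fitted to all probe sets. Adjusted p-values are Benjamini-Hochberg, over genes at the main probe set unless probe sets are named. Tested on simulated data for this comparison (18193 genes), the fit recovered 88.7% of genes shifted by 1 log2 and 46.6% of those shifted by 0.5, and 5.19% of its calls were false. The number of arrays limits precision.

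Members and lists were chosen with earlier results of these data known. Named were all members, genes of each of the 6 pigment lists past the threshold or else the 2 with the smallest p, Nr3c1, and the 5 genes most like the pigment profile. Others were chosen after their values were seen: all genes named from the marker lists, Pax3, Pomc, the Hps genes, Kit, Kitl, Myo5a and Rab27a. Alternatives covered normalization, dim probe sets, the variance prior, array weights, covariates, arrays left out and the choice of probe set.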

Additional observations from a re-analysis of the deposited data

Results flagged for a closer look

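Mlana read 6.51 log2 in wild-type 4, against 6.91 to 6.99 in the other wild-type arrays. The gap to the nearest array took up 0.839 of the group's range, which is more than the critical value for 4 arrays. Chance marks about 1 in 20 groups in this way, and 20 groups were examined. Without wild-type 4 the difference of Mlana was -0.05 (limma adjusted p = 0.888).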

How the results depend on the processing

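Tyr and Pmel stayed past the threshold in all 20 alternatives, at 0.54 to 1.13 and 0.76 to 1.08 log2 (limma adjusted p up to 0.0498 and 0.0412). The share of all genes past the threshold in each alternative is not given here. The counts that follow therefore do not tell a change in these genes from a change in all genes. The count of 2 higher pigment genes became 4 with array quality weights, with the muscle covariate and with the mean of all probe sets. It was 5 with the probe set of largest SD. It was 2 to 4 without 1 array, with the 4 reached without GR-null 17. The count of 0 lower ones became 1, Mc1r, without wild-type 6 and GR-null 17 and with the Y-linked covariate, and was 0 to 1 without 1 array. Of the pigment probe sets 5 were higher, 3 with the muscle covariate and 1 to 6 without 1 array. The 0 lower probe sets became 2 without wild-type 6 and GR-null 17 and 1 with the Y-linked covariate, and were 0 to 1 without 1 array. In the 6 pigment lists the 1 higher gene became 3 with array weights and with the hair follicle covariate, 2 without wild-type 6 and GR-null 17, 4 with the mean of probe sets and 9 with the largest SD, and 0 to 2 without 1 array. The 0 lower became 1 with array weights and with the hair follicle covariate and 2 without wild-type 6 and GR-null 17, and was 0 to 2 without 1 array. Signs turned where differences were near 0. Mlana came to -0.010 with array weights, -0.023 without wild-type 6 and GR-null 17 and -0.10 with the hair follicle covariate (-0.073 to 0.13 without 1 array). Mitf came to -0.065 with array weights, -0.16 without wild-type 6 and GR-null 17, -0.15 with the hair follicle covariate, -0.0085 with label numbers below 10 as a term, -0.085 with the mean of probe sets and -0.20 with the largest SD (-0.12 to 0.11 without 1 array). Gpr143 came to 0.11 with the muscle covariate (-0.14 to 0.043 without 1 array). The cause of these shifts was not tested. Oca2, Mc1r and Gpr143 were not read above the median level. No paired analysis was possible because the labels do not give the litter of each array.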

Other observations

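Myo5a, which encodes myosin Va, the motor that carries melanosomes and the product of the dilute locus, varied more among arrays of a genotype than between genotypes. Its brightest probe set gave log2 levels of 8.88, 9.002, 7.68 and 8.61 for wild-type 4, 6, 28 and 29, and of 8.06, 8.49, 8.15 and 7.33 for GR-null 5, 17, 25 and 26. Wild-type 28 and GR-null 26 were the lowest of their groups there and at both other probe sets. At the third these arrays read 6.37 and 6.54, and the remaining 6 arrays 7.32 to 8.09. The difference between the genotypes was -0.53 (95% interval -1.26 to 0.19, limma adjusted p = 0.384). Myo5a was chosen after its values were seen. Its partner Rab27a, a GTPase on the melanosome surface also chosen in this way, read 8.31, 7.89, 8.99 and 7.59 on the wild-type arrays and 8.28, 8.58, 8.99 and 8.80 on the GR-null arrays, with overlap between the groups and a difference of 0.47 (95% interval -0.17 to 1.10). The dimmer probe sets of Rab27a differed by -0.05, 0.80 and 0.89, with limma adjusted p of 0.875, 0.244 and 0.199 over all probe sets.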
